A study of Canis lupus familiaris with 9 samples.

Results

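The genes described here are the checkpoint receptors PDCD1, LAG3, TIGIT, BTLA and CD96, the activating receptor CD226 that competes with TIGIT and CD96 for ligand, and the nuclear factors TOX and TOX2. They were chosen by name, as rows of the deposited files whose gene symbol matched a list of 9, and 8 of the 9 were found among 28008 features in all. The ninth, CTLA4, was not analysed here. All 8 had a normalised read count of at least 10 in at least 3 libraries of each comparison and were tested.

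The groups were 3 CD4+ peripheral T-cell lymphomas (PTCL, cancers of mature T cells) of Boxers, 3 of dogs of other breeds, and 3 libraries of sorted CD4+ T cells from healthy hounds. The Boxers were a castrated male of 6 years, a spayed female of 8 years and a castrated male of 6 years. The other breeds were a spayed Cavalier King Charles Spaniel of 3 years, a spayed Rhodesian Ridgeback of 4 years and a castrated Collie male of 11 years. The controls were female, 1 year old and not neutered. Disease therefore cannot be told apart from breed, age and neutering, and nothing in the labels says whether the 3 controls were separate dogs, so a p-value here speaks only of the scatter among these libraries. Sorting is named for the controls, while the tissue and any sorting of the lymphomas are not given in the sources used here.

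Checkpoint receptors sit on the T cell surface and set how strongly a T cell responds once its antigen receptor is engaged. In humans and mice, PD-1 (the product of PDCD1), LAG-3, TIGIT and BTLA restrain the cell, and TIGIT, CD96 and CD226 compete for the ligands PVR (CD155) and the nectins, with CD226 giving the activating signal. TOX and TOX2 are related DNA-binding proteins that take part in T cell development. In mice both are linked to long-lasting expression of PD-1 during chronic stimulation, and TOX2 also to follicular helper T cells.

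The libraries held 11710623 to 18488468 reads. On the second principal component of all tested genes, other-breed lymphomas 1 and 2 lay at -120 and -78.2 and the remaining libraries between 11.3 and 58.8. T cell marker genes summed to 60678 to 103803 normalised reads in lymphomas and 76939 to 79925 in controls, with 7 of 8 markers found. Single genes in this sum diverged. CD5 had 265 to 4320 in lymphomas and 10272 to 10649 in controls, and CD3G 12348 to 16954 and 9845 to 10791. In lymphoma against control, 1 of the 7 T cell markers was higher and 0 lower (19.4% and 15.7% of all genes). Macrophage markers summed to 795 to 18557 in lymphomas and 117 to 197 in controls, most of it the single gene LYZ (616 to 16931 and 69.5 to 133), and fibroblast markers to 147 to 11708 and 12.4 to 50.5. In lymphoma against control, 9 of 10 tested macrophage markers and 7 of 10 fibroblast markers were higher, against 19.4% of all genes. Control values this low left these markers little room for a lower call. FCER1G among the macrophage markers and LUM and MMP2 among the fibroblast markers were at 0 in all controls. The part of other cell types in the results that follow was not tested. In bulk libraries, fewer cells expressing a gene and less RNA per cell cannot be told apart.

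Values are reads divided by 1 size factor per library, called normalised reads here. Tests are limma on log2(value + 1) with Benjamini-Hochberg adjustment over all genes and an adjusted p threshold of 0.05, and fold changes are on that log2 scale. The added 1 draws ratios of values near 0 towards 1, while averaging logs gives more weight to the lowest libraries than a count model does, and for PDCD1, TIGIT and LAG3 the limma estimates were larger in size than those of edgeR and DESeq2. In lymphoma against control, 4 of the 8 genes (PDCD1, LAG3, TIGIT and BTLA) were lower and 2 (CD96 and TOX2) were higher, and CD226 and TOX passed in neither direction. Over all 15977 genes tested, 15.7% were lower and 19.4% were higher. For the same 6 genes every lymphoma lay outside the range of the controls, as did 35.8% of all genes. The count was again 2 higher and 4 lower when other-breed lymphomas 1 and 2 were left out.

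**Figure D1:**
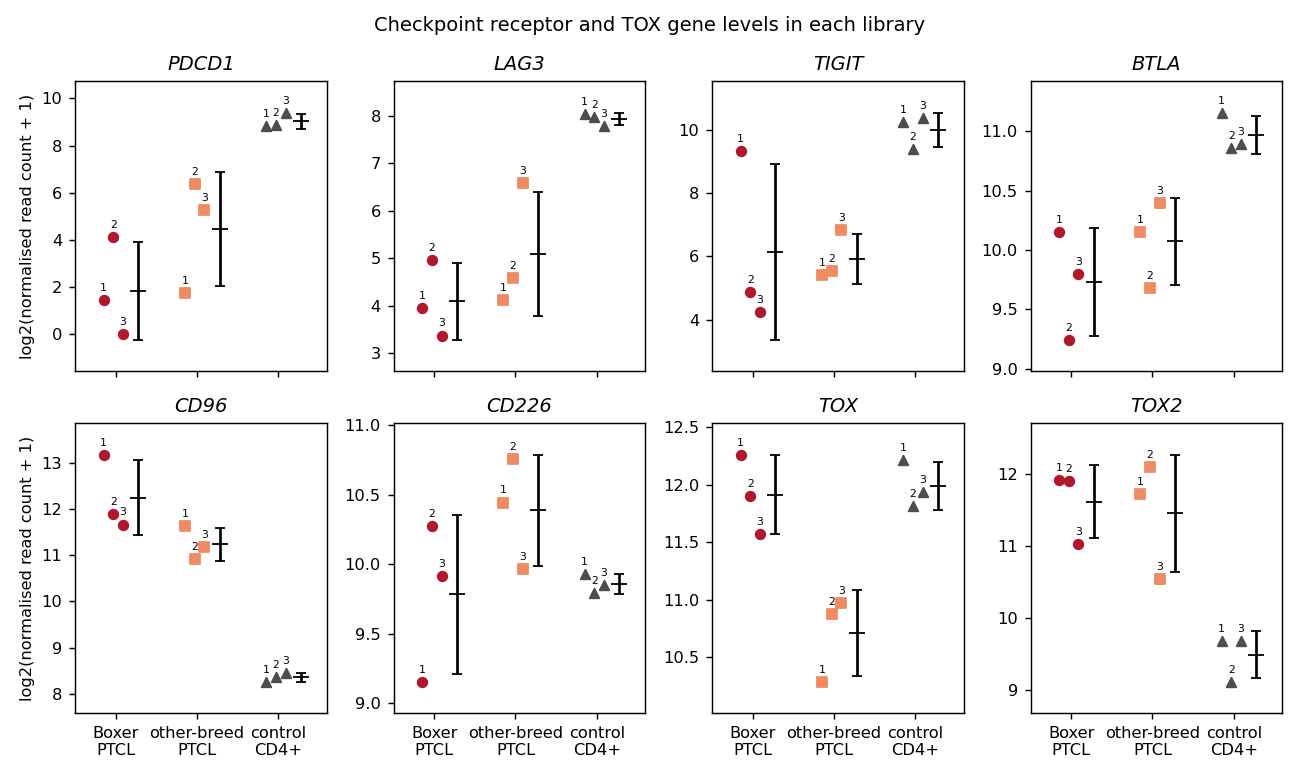
Normalised reads of the 8 genes in each library, as log2(normalised read count + 1), with 1 numbered point per library of Boxer lymphomas, other-breed lymphomas and controls and, beside the points, the group mean with bars of 1 SD (n = 3 each). The lymphoma points of PDCD1, LAG3, TIGIT and BTLA lie below all controls, those of CD96 and TOX2 above all controls.

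Among the inhibitory receptors, PDCD1 had the largest difference. PDCD1 (ENSCAFG00000013184) had 1.70, 16.1 and 0 normalised reads in Boxer lymphomas and 2.35, 81.2 and 37.1 in other-breed lymphomas, against 453, 469 and 670 in controls. The highest lymphoma was other-breed lymphoma 2, still far below the lowest control. Boxer lymphoma 3 held no PDCD1 read, which allows a level of up to 3.12 normalised reads (3 reads at its depth, counting error only). PDCD1 averaged 23.1 ± 31.8 in lymphomas and 531 ± 121 in controls (SD, n = 6 and 3), and its log2 fold change was -5.88 ± 1.26 (SE, limma adjusted p = 0.00580). The size of this change depends on the model for low counts: over the alternatives run it was between -7.20 with age as a covariate and -4.51 with edgeR, and each kept an adjusted p below the threshold. All controls were of the same age, so the age slope here and below rests on the lymphomas alone and is extended to the younger controls.

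LAG3 (ENSCAFG00000014675), an inhibitory receptor that binds MHC class II, had 14.4, 30.3 and 9.37 normalised reads in Boxer lymphomas and 16.5, 22.9 and 94.5 in other-breed lymphomas, against 261, 252 and 220 in controls. Other-breed lymphoma 3 stood above the other lymphomas and below every control. The log2 fold change of LAG3 was -3.34 ± 0.63 (SE, limma adjusted p = 0.00305), against -2.99 with edgeR.

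TIGIT (ENSCAFG00000010817) varied most among the lymphomas, with a coefficient of variation of 165% against 33.0% in controls. Its values were 645, 28.4 and 17.7 normalised reads in Boxer lymphomas and 41.2, 45.7 and 114 in other-breed lymphomas, against 1218, 676 and 1347 in controls. Boxer lymphoma 1 lay just below the lowest control, and the other 5 lymphomas were at or below 114. The log2 fold change was -3.98 ± 0.93 (SE, limma adjusted p = 0.00882), against -2.87 with edgeR (adjusted p = 0.0494). With age as a covariate TIGIT no longer passed (-4.57, limma adjusted p = 0.0725).

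BTLA (ENSCAFG00000010480), the receptor for TNFRSF14, was lower by a smaller factor and at a higher level. It had 1135, 606 and 889 normalised reads in Boxer lymphomas and 1134, 817 and 1348 in other-breed lymphomas, against 2281, 1852 and 1901 in controls. The groups did not overlap. The log2 fold change was -1.07 ± 0.24 (SE, limma adjusted p = 0.00706), and with age as a covariate the call was lost (-1.18, adjusted p = 0.0736).

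**Figure D2:**
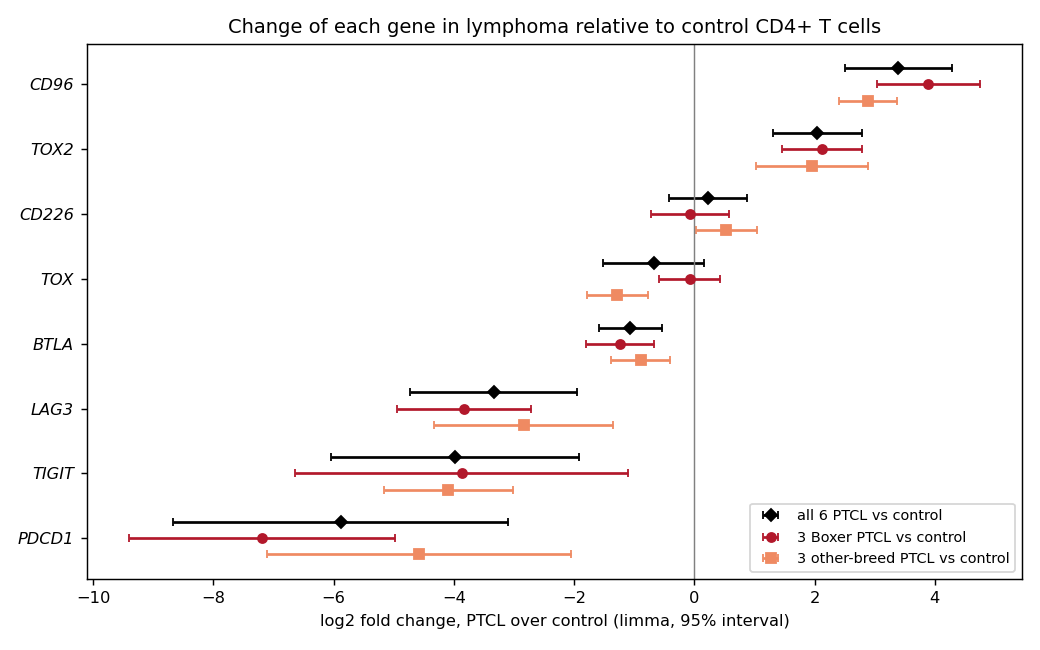
Log2 fold changes of the 8 genes for all lymphomas, Boxer lymphomas and other-breed lymphomas, each against the same 3 controls, as limma estimates (points) with their 95% confidence intervals (bars). In lymphoma against control, PDCD1 has the lowest estimate at -5.88 and CD96 the highest at 3.39.

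The CD155-binding receptors did not move together. CD96 (ENSCAFG00000010358) had 9270, 3805 and 3256 normalised reads in Boxer lymphomas and 3162, 1938 and 2312 in other-breed lymphomas, against 306, 328 and 346 in controls. Boxer lymphoma 1 was well above the other lymphomas, and the lowest lymphoma was still several-fold above the highest control. CD96 averaged 3957 ± 2689 in lymphomas and 327 ± 20.3 in controls (SD, n = 6 and 3). The difference of its mean log2 values was 3.39 ± 0.40 (SE, limma adjusted p = 2.67e-04). Its estimate was between 3.1 and 3.63 over the alternatives run, the fit with age among them.

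CD96 is also carried by killer cells, so markers of those cells are given beside it. The 11 killer and CD8 T cell markers found summed to 261, 6801 and 311 normalised reads in Boxer lymphomas and 1701, 961 and 864 in other-breed lymphomas, against 1601, 1081 and 1088 in controls. Single genes set some of these sums: KLRB1 held 6050 of the 6801 in Boxer lymphoma 2, and CD8A 1089 of the 1701 in other-breed lymphoma 1. Of 10 markers tested, 1 was higher and 1 lower (19.4% and 15.7% of all genes). PRF1 (perforin) had 53.5, 50.2 and 121 in Boxer lymphomas and 96.5, 110 and 69.0 in other-breed lymphomas, against 21.8, 9.91 and 9.26 in controls (2.54 ± 0.46, limma adjusted p = 0.00252). NCR3, a natural killer cell receptor, was lower (-2.56 ± 0.29, adjusted p = 2.07e-04), and GZMA was at 0 in all controls. The part of killer cells in the CD96 values was not tested.

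CD226 (ENSCAFG00000000038) had 569, 1240 and 965 normalised reads in Boxer lymphomas and 1391, 1727 and 999 in other-breed lymphomas, against 976, 885 and 921 in controls. Boxer lymphoma 1 lay below every control, Boxer lymphoma 3 within their range and the other 4 lymphomas above it. The log2 fold change was 0.23 ± 0.29 (SE, limma adjusted p = 0.569), with a 95% confidence interval of -0.42 to 0.88. In the female dogs alone it was 0.63 (limma adjusted p = 0.0336). The lymphomas in that fit were Boxer lymphoma 2 and other-breed lymphomas 1 and 2, and the last 2 were the highest in CD226. Leaving out other-breed lymphomas 1 and 2 gave -0.03.

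Ratios within a library describe the balance of these receptors. Such ratios of normalised reads are not corrected for gene length, so only their differences between libraries are read. The CD96 to TIGIT ratio was 14.4, 134 and 184 in Boxer lymphomas and 76.7, 42.4 and 20.4 in other-breed lymphomas, against 0.25, 0.48 and 0.26 in controls. The CD226 to TIGIT ratio was 0.88, 43.6 and 54.5 in Boxer lymphomas and 33.8, 37.8 and 8.79 in other-breed lymphomas, against 0.80, 1.31 and 0.68 in controls. The separation of lymphomas from controls in the CD96 to TIGIT ratio follows from the separation of each gene and adds nothing to it. In the CD226 to TIGIT ratio Boxer lymphoma 1 fell within the range of the controls.

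**Figure D3:**
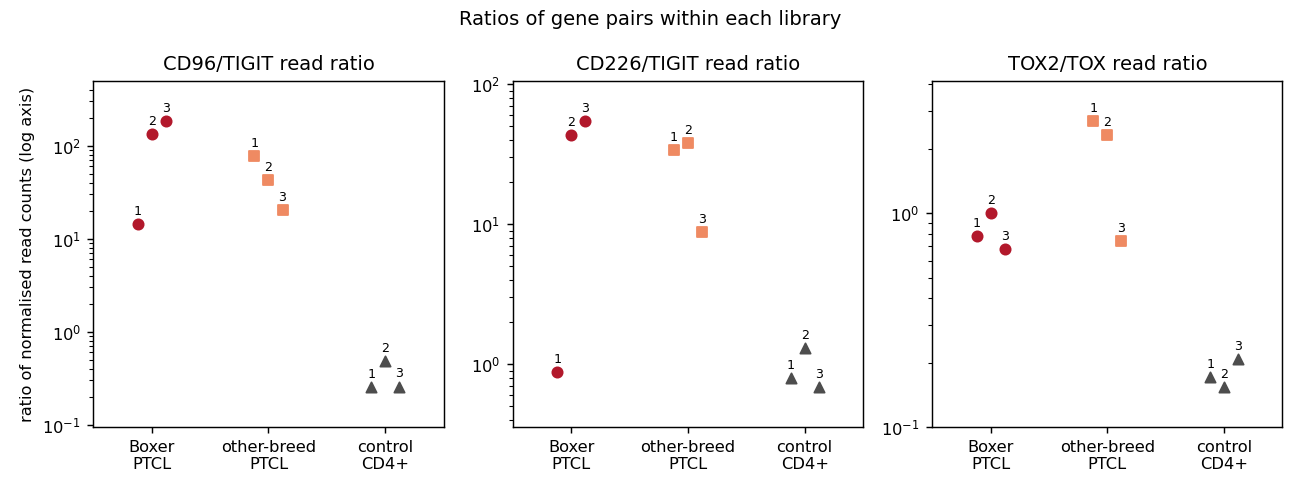
Ratios of normalised reads of CD96 to TIGIT, CD226 to TIGIT and TOX2 to TOX in each library, on log10 axes, for Boxer lymphomas, other-breed lymphomas and controls. All 6 lymphomas exceed all 3 controls in CD96 to TIGIT and TOX2 to TOX, and Boxer lymphoma 1 (0.88) sits among the controls in CD226 to TIGIT.

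The TOX factors differed from each other. TOX2 (ENSCAFG00000009354) had 3846, 3823 and 2081 normalised reads in Boxer lymphomas and 3365, 4362 and 1485 in other-breed lymphomas, against 819, 552 and 816 in controls. All lymphomas were above all controls, with other-breed lymphoma 3 the lowest. Its log2 fold change was 2.04 ± 0.33 (SE, limma adjusted p = 0.00154), a fold of 4.12.

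TOX (ENSCAFG00000007137) had 4906, 3825 and 3048 normalised reads in Boxer lymphomas and 1250, 1875 and 2010 in other-breed lymphomas, against 4757, 3603 and 3929 in controls. The Boxer lymphomas overlapped the controls, and the other-breed lymphomas lay below every Boxer lymphoma and every control. Over the 6 lymphomas the log2 fold change was -0.68 ± 0.38 (SE, limma adjusted p = 0.183), with a 95% confidence interval of -1.52 to 0.16. The TOX2 to TOX ratio was 0.78, 1.00 and 0.68 in Boxer lymphomas and 2.69, 2.33 and 0.74 in other-breed lymphomas, against 0.17, 0.15 and 0.21 in controls. TOX4, a more widely expressed relative, had a log2 fold change of -0.33 ± 0.13 (limma adjusted p = 0.0737) and was looked up after its value was known.

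Taken by breed group against the same 3 controls, PDCD1, LAG3, TIGIT and BTLA were lower and CD96 and TOX2 higher in both groups. Of the 8 genes, 2 were higher and 4 lower in Boxer lymphomas (21.5% and 17.9% of 15155 genes), and 2 were higher and 5 lower in other-breed lymphomas (15.5% and 14.2% of 14631 genes), where TOX is the fifth. The 2 comparisons share their controls and are given side by side. PDCD1 had log2 fold changes of -7.19 ± 0.95 in Boxer lymphomas (SE, limma adjusted p = 0.00133) and -4.58 ± 1.08 in other-breed lymphomas (adjusted p = 0.0196). LAG3 had -3.84 ± 0.48 in Boxer lymphomas and -2.84 ± 0.63 in other-breed lymphomas, and BTLA -1.24 ± 0.25 and -0.89 ± 0.21. CD96 had 3.89 ± 0.37 in Boxer lymphomas and 2.89 ± 0.21 in other-breed lymphomas, and TOX2 2.12 ± 0.29 and 1.96 ± 0.39. These 5 genes passed the limma threshold in both groups.

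TIGIT in Boxer lymphomas was lower by limma, at -3.87 ± 1.20 on the log2 scale (SE, adjusted p = 0.0357), but not in all fits. Its adjusted p was 0.188 with edgeR and 0.199 with DESeq2, and between 0.0728 and 0.110 without controls 1, 2 or 3 or Boxer lymphomas 2 or 3. In other-breed lymphomas TIGIT had -4.09 ± 0.46 (limma adjusted p = 0.00185) and passed in every alternative run. PDCD1, LAG3 and BTLA in other-breed lymphomas lost their calls whenever 1 of the 3 controls was left out, with limma adjusted p between 0.0585 and 0.0749, and TOX2 did so without control 2 (adjusted p = 0.0531).

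TOX had a log2 fold change of -0.08 ± 0.22 in Boxer lymphomas (SE, limma adjusted p = 0.796, 95% confidence interval -0.58 to 0.42) and -1.28 ± 0.22 in other-breed lymphomas (adjusted p = 0.00649). The fall in other-breed lymphomas passed in every alternative run. CD226 had -0.07 ± 0.28 in Boxer lymphomas (limma adjusted p = 0.852) and 0.53 ± 0.22 in other-breed lymphomas (adjusted p = 0.104). Without other-breed lymphoma 3 the CD226 value in other-breed lymphomas was 0.74 (limma adjusted p = 0.0261).

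Boxer lymphomas were also compared directly with other-breed lymphomas, without the controls. None of the 8 genes passed, and limma called 0 of 15112 genes (0%), edgeR 0 and DESeq2 44 higher and 58 lower, while 753 genes (4.98%) had an unadjusted limma p under 0.05. TOX averaged 3926 ± 933 in Boxer lymphomas and 1712 ± 406 in other-breed lymphomas (SD, n = 3 each). The groups did not overlap, and the log2 fold change was 1.20 ± 0.27 (SE, 95% confidence interval 0.56 to 1.84, limma unadjusted p = 0.00295, adjusted p = 0.848). By DESeq2 its adjusted p was 0.0576, and by edgeR 0.965. CD96 averaged 5444 ± 3325 in Boxer lymphomas and 2470 ± 627 in other-breed lymphomas, a log2 difference of 1.01 ± 0.42 (SE, limma unadjusted p = 0.0470, adjusted p = 0.881). CD96 and TOX were the 2 of 8 genes without overlap between the lymphoma groups, as were 10.7% of all genes.

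For the other 6 genes the intervals of the direct comparison included 0. PDCD1 differed by -2.61 (limma 95% confidence interval -6.26 to 1.03), LAG3 by -1.0 (-3.04 to 1.04) and TIGIT by 0.22 (-2.92 to 3.36) on the log2 scale. BTLA differed by -0.34 (-1.07 to 0.38), TOX2 by 0.16 (-0.89 to 1.22) and CD226 by -0.60 (-1.42 to 0.21). The TIGIT difference had no stable direction: leaving out Boxer lymphoma 1 gave -1.38, leaving out other-breed lymphoma 1 gave -0.05, and edgeR gave 1.81.

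Many ligands of these receptors are made by antigen-presenting and stromal cells, but some listed ligand genes were also well above 0 in the sorted CD4+ controls. There CD80 had 948 to 1273, TNFRSF14 1224 to 1956 and VSIR 1074 to 1595 normalised reads. Of 14 ligand genes listed, 12 were found and tested in lymphoma against control. Of these, 5 were higher and 3 lower (19.4% and 15.7% of all genes), with a median log2 fold change of 1.36 against 0.05 over all genes. In Boxer lymphomas against control, 6 of 12 were higher and 3 lower (median 1.94), against 21.5% and 17.9% of all genes. In other-breed lymphomas 2 of 8 were higher and 1 lower (median -0.54), against 15.5% and 14.2%. PDCD1LG2, NECTIN2, NECTIN3 and FGL1, below 10 normalised reads in every control, missed the filter there, so the medians cover different genes. In all lymphomas and in Boxer lymphomas against control, these genes reached the filter through lymphoma libraries alone. PVR reached 10 in only 1 control. Such genes had little room for a lower call, so those counts and medians lean towards higher. Macrophage and fibroblast marker sums were above every control in all 6 lymphomas, and their part in these counts was not tested.

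Among the PD-1 ligands, PDCD1LG2 (PD-L2) had 34.0, 27.5 and 29.2 normalised reads in Boxer lymphomas and 3.53, 5.52 and 72.2 in other-breed lymphomas, with no read in any control. Pooled over each group, it had 175 reads in lymphomas and 0 in controls, at least 28.2-fold higher (3 reads for the control group, counting error only). PDCD1LG2 passed the test (limma adjusted p = 0.00509) but not with age as a covariate (adjusted p = 0.242). It was lowest in other-breed lymphomas 1 and 2, which also had the lowest macrophage and fibroblast sums and came from the youngest lymphoma dogs. A link of PDCD1LG2 to either was not tested. CD274 (PD-L1) averaged 74.1 ± 34.7 in lymphomas and 126 ± 70.5 in controls and passed in neither direction (-0.73 ± 0.44, adjusted p = 0.217).

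The B7 ligands of CD28 went opposite ways. CD86 had 265, 262 and 325 normalised reads in Boxer lymphomas and 41.2, 150 and 353 in other-breed lymphomas, against 16.4, 19.8 and 21.3 in controls. CD80 had 182, 155 and 182 in Boxer lymphomas and 97.7, 132 and 541 in other-breed lymphomas, against 1273, 955 and 948 in controls. Neither gene overlapped between lymphomas and controls. Both are made by antigen-presenting cells, among them dendritic cells, B cells and macrophages. Dendritic cell markers summed to 6595 to 11684 in lymphomas and 18413 to 20845 in controls. Of these, 4 of 7 were higher (19.4% of all genes) and 1 (CCR7, also on naive T cells) lower (15.7%). The median log2 fold change of the 7 was 2.37, so their sum ran against most of the single markers. B cell markers summed to 498 to 6347 in lymphomas and 1670 to 1911 in controls, with 0 of 7 called. Over all genes, 19.4% were higher and 15.7% lower. Macrophage markers summed to 8256, 3883 and 9262 in Boxer lymphomas and 795, 2698 and 18557 in other-breed lymphomas, against 117 to 197 in controls. The part of any of these cell types in the CD80 and CD86 values was not tested. The log2 fold changes were 3.27 ± 0.62 for CD86 (SE, limma adjusted p = 0.00331) and -2.52 ± 0.44 for CD80 (adjusted p = 0.00222). With age as a covariate, its slope set by the lymphomas alone, CD86 lost its call (1.64, limma adjusted p = 0.169). CD80 was still lower (-3.94, adjusted p = 0.00100). CD28, their activating receptor, averaged 2103 ± 443 in lymphomas and 1694 ± 88.0 in controls with a log2 fold change short of the threshold (0.28 ± 0.19, adjusted p = 0.272).

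PVR, the shared ligand of TIGIT, CD96 and CD226, was low throughout. It had 27.2, 53.1 and 64.6 normalised reads in Boxer lymphomas and 87.1, 44.9 and 69.0 in other-breed lymphomas, against 17.7, 1.65 and 3.70 in controls. Every lymphoma was above every control, and the log2 fold change was 3.16 ± 0.65 (SE, limma adjusted p = 0.00464), against 3.14 (adjusted p = 0.0763) with age as a covariate. NECTIN2, a ligand of TIGIT and CD226, had 3.48 ± 1.09 (adjusted p = 0.0308), and other-breed lymphoma 1 at 2.35 was below control 1 at 5.46. With the age covariate the NECTIN2 estimate was 0.47 (adjusted p = 0.833). NECTIN3, described with PVR as a partner in cell adhesion and chosen after its value was seen, had 4.62 ± 1.54 (adjusted p = 0.0396) and no read in other-breed lymphoma 1. TNFRSF14, the ligand of BTLA, fell (-0.80 ± 0.24, adjusted p = 0.0263), as did VSIR, which encodes the inhibitory protein VISTA (-1.68 ± 0.54, adjusted p = 0.0333).

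**Figure D4:**
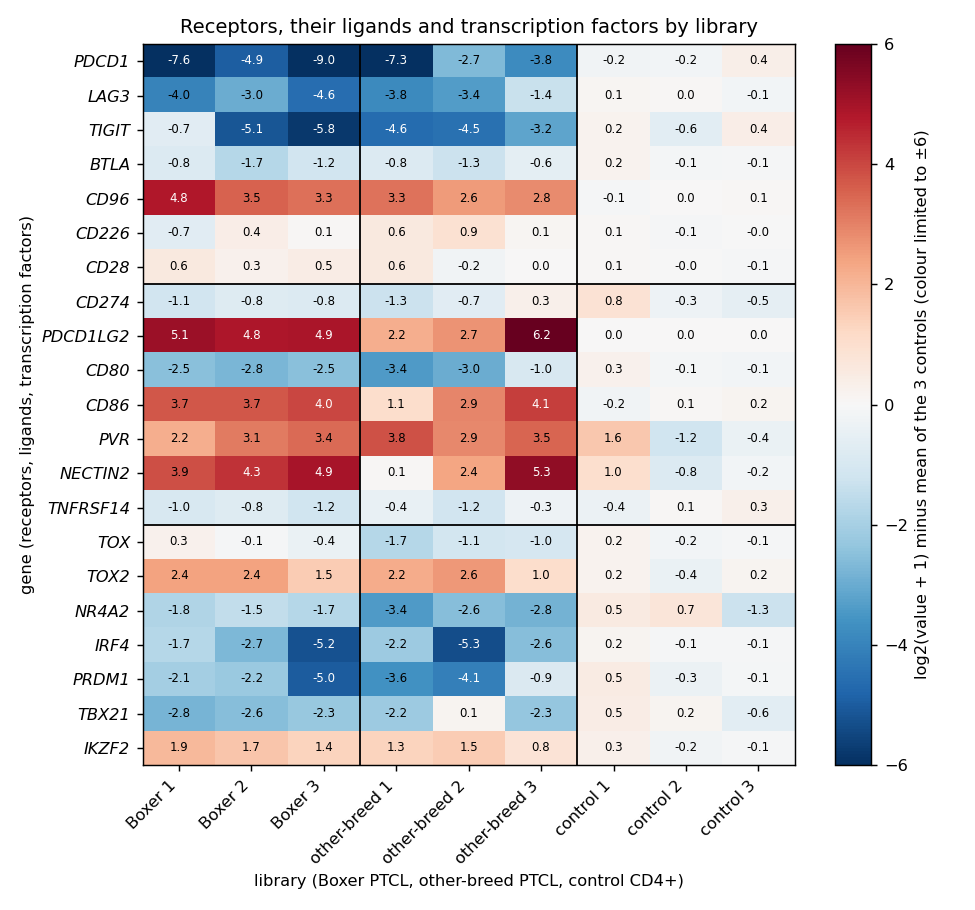
Log2(value + 1) less the mean of the 3 controls for receptors, ligands and transcription factors, with 1 column per library of Boxer lymphomas, other-breed lymphomas and controls, and colour limited to ±6. CD80 is below and CD86 above the control mean in every lymphoma.

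Of 19 other receptors of T cell stimulation and inhibition listed, 15 were found and tested, with 1 higher and 3 lower in lymphoma against control (median 0.19). Over all genes 19.4% were higher and 15.7% lower, so the 4 called in either direction are no larger a share than among all genes. TNFRSF18 (GITR), a costimulatory receptor of activated and regulatory T cells, was the one that rose. TNFRSF18 had 596, 681 and 1270 normalised reads in Boxer lymphomas and 1186, 1910 and 1634 in other-breed lymphomas, against 253, 237 and 229 in controls (2.21 ± 0.35, limma adjusted p = 0.00135). SLAMF6, a signalling lymphocyte receptor, fell by 2.23 on the log2 scale (adjusted p = 0.00237), KLRG1, a receptor of differentiated T and killer cells, by 2.69 (adjusted p = 0.00366), and CD27, a costimulatory receptor, by 1.32 (adjusted p = 0.00780).

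Regulatory T cells carry several of these receptors, so their markers are given as well. The 7 markers summed to 3422 to 5184 normalised reads in lymphomas and 3104 to 4282 in controls. Of 6 tested, 2 were higher and 3 lower (19.4% and 15.7% of all genes), with a median log2 fold change of -1.45. The sums hide markers that went opposite ways. IKZF2 and TNFRSF18, the 2 that rose, held 2810 and 596 of the 3741 in Boxer lymphoma 1. In control 1 they held 905 and 253 of the 4282. FOXP3, the defining factor of regulatory T cells, had 72.2, 108 and 71.8 in Boxer lymphomas and 142, 56.0 and 502 in other-breed lymphomas, against 730, 629 and 630 in controls (-2.52 ± 0.59, limma adjusted p = 0.00872). IKZF2 rose (1.44 ± 0.23, adjusted p = 0.00142), with 2810, 2338 and 1886 in Boxer lymphomas and 1850, 2151 and 1290 in other-breed lymphomas, against 905, 636 and 696 in controls. Follicular helper T cells are high in PD-1 and TIGIT, and the 5 of their 7 markers that were found summed to 1604 to 24836 in lymphomas and 9697 to 13188 in controls. SH2D1A and ICOS set this range, with 18485 and 6322 of the 24836 in other-breed lymphoma 1 and 126 and 1469 of the 1604 in other-breed lymphoma 2. Of the 5 markers, none was higher and 2 were lower (19.4% and 15.7% of all genes). CXCR5 was among the lower markers (-5.41 ± 0.71, limma adjusted p = 4.78e-04). The part of follicular helper T cells in the PDCD1 and TIGIT differences was not tested.

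All 13 signalling genes listed below the receptors were found and tested, with 1 higher and 3 lower in lymphoma against control (median -0.19). The 4 called in either direction are no larger a share than the 19.4% and 15.7% of all genes together. DGKA, a diacylglycerol kinase that dampens T cell receptor signalling, had 5098, 4891 and 2901 normalised reads in Boxer lymphomas and 6223, 3878 and 4852 in other-breed lymphomas, against 12613, 14126 and 14508 in controls (-1.60 ± 0.22, limma adjusted p = 6.04e-04). CBLB, a ubiquitin ligase that restrains T cell activation, fell by 2.14 (adjusted p = 0.00141) and PIK3R1, the PI3-kinase regulatory subunit, by 1.16 (adjusted p = 0.00304). PTPN11, which encodes the phosphatase SHP-2 recruited by PD-1, rose slightly (0.39 ± 0.13, adjusted p = 0.0373).

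Of 22 transcription factors of the NFAT, NR4A and TOX-linked list, 19 were found and 18 tested, with 1 higher (IKZF2) and 4 lower and a median of -0.66, against 0.05 over all genes. The 5 called in either direction are no larger a share than among all genes. NR4A2, an early response factor downstream of the T cell receptor, fell by 2.29 (limma adjusted p = 0.00819), with controls between 397 and 1613 normalised reads. IRF4, induced by antigen receptor signals, had 503, 253 and 42.7 normalised reads in Boxer lymphomas and 354, 40.2 and 275 in other-breed lymphomas, against 1824, 1539 and 1546 in controls (-3.28 ± 0.79, adjusted p = 0.00980). PRDM1, which encodes the repressor Blimp-1, fell by 2.98 (adjusted p = 0.0145) and TBX21, the T helper 1 factor T-bet, by 1.99 (adjusted p = 0.0356). When age was added as a covariate, 12 of the 20 called ligand, receptor, signalling and transcription factor genes named here by rule lost their calls, and none changed direction. They were CD86, PVR, PDCD1LG2, NECTIN2, TNFRSF14, VSIR, CD27, PIK3R1, PTPN11, NR4A2, IRF4 and TBX21. PRDM1, NR4A2, TNFRSF14, NECTIN2, VSIR, TBX21 and PTPN11 lost theirs without at least 1 of the controls. TBX21 missed the threshold in 12 of 21 alternatives, edgeR and DESeq2 among them, PTPN11 in 11 and VSIR in 10, and NECTIN2 in 7 of 20.

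The genes whose profile over the 9 libraries was closest to each receptor or factor were found by the root mean square difference of centred log2 values among 11239 genes. LAG3 was closest to FAS (0.28 log2 units), and CD96 to KIF20A (0.30) and SH3PXD2B (0.39). BTLA was closest to EAF1 (0.14) and FAM214A (0.14), and CD226 to GFPT1 (0.12) and SERAC1 (0.15). TOX was closest to LPP (0.15) and DHRSX (0.20), and TOX2 to CCND2 (0.37) and BCL7A (0.38). PDCD1 was closest to TRAV26-2 (1.02) and TIGIT to ZNF548 (0.86). These differences grow with a gene's own spread over the libraries, which was an SD of 3.33 log2 units for PDCD1, 2.33 for TIGIT, 1.08 for TOX2 and 0.43 for CD226, so they do not rank the genes by closeness. All libraries in these profiles share the contrast between lymphomas and controls, so likeness reflects that contrast too.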

How the data were processed

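RNA sequencing was done on 9 canine libraries, from oligo(dT)-enriched RNA per the labels' protocols. TopHat2, HTSeq, DESeq2 and the build CanFam3.1 are named in the submitters' processing notes, without versions. No source used here says whether libraries kept strand, and a gene may share reads with an overlapping antisense gene. In the deposited files the signal of a gene is its read count after division by the authors' size factor for that library. Whole reads were recovered from 100% of values within a tolerance of 0.01 reads.

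Groups follow the labels. The genes and lists described were chosen with earlier results of these data known. Further pathway genes were named by rule: up to 4 per list and direction with the smallest p in lymphoma against control, plus CD28 and the main ligands. Tests used limma 3.58.1 in R 4.3.3 on log2(value + 1) with a mean-variance trend, for genes reaching a value of 10 in 3 or more compared libraries. Alternatives were TMM and CD3 scaling, other filters and pseudocounts (0.5 and 5), edgeR 4.0.16, DESeq2 1.42.0, a replicate block, age as a covariate, female dogs only and libraries left out. The limma, edgeR and DESeq2 steps were tested on simulated data. No coordinates are printed, since the files carry none. The 2 genes with the most similar profile were sought for each gene, and some of them are not reported here.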

Additional observations from a re-analysis of the deposited data

Results flagged for a closer look

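In 3 of the 8 genes and in 4 of the further pathway genes, the highest of the 6 lymphomas stood apart by Dixon's criterion. Chance flags about 1 in 20 groups, and 7 of 30 genes checked were flagged. The criterion was applied to normalised reads, which are skewed towards high values. On the log2(value + 1) scale used for the tests, the gap over range was 0.50 for LAG3, 0.49 for TIGIT and 0.57 for CD96, all under the critical value, as were SLAMF6 (0.50) and CD274 (0.62), while CD80 (0.64) and TBX21 (0.79) were above it. LAG3 was highest in other-breed lymphoma 3, at 94.5 normalised reads, with the other lymphomas between 9.37 and 30.3. TIGIT was highest in Boxer lymphoma 1, at 645, with the others between 17.7 and 114. CD96 was highest in the same library, at 9270, with the others between 1938 and 3805. CD80 and CD274 were highest in other-breed lymphoma 3, at 541 and 142. SLAMF6 was highest in Boxer lymphoma 3, at 1389, and TBX21 in other-breed lymphoma 2, at 110. Other-breed lymphoma 3 had a macrophage marker sum of 18557, of which the single gene LYZ held 16931, and the part of those cells in these values was not tested.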

How the results depend on the processing

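No call reversed under any alternative run. With age as a covariate, 2 of the 8 genes were called lower in lymphoma than in control, and CD96 and TOX2 were still called higher. TIGIT (-4.57) and BTLA (-1.18) kept their direction but lost their calls. Of all genes tested, 1048 were called higher and 885 lower in the age fit, against 3092 and 2504. That fit extends an age slope of the lymphomas to controls that were all younger. Leaving out 1 library gave 1866 to 3291 higher and 1194 to 2605 lower genes in lymphoma against control, 2108 to 2570 higher and 1238 to 2821 lower in Boxer lymphomas, and 1007 to 2155 higher and 617 to 2464 lower in other-breed lymphomas. Of the 8 genes, 1 to 3 were then higher and 2 to 5 lower in other-breed lymphomas. CD3 scaling gave 1461 higher genes in other-breed lymphomas, against 2265, and moved the median log2 fold change of all genes to -0.17, against -0.03. It moved that of Boxer against other-breed lymphomas to 0.16, against 0.02. In that last comparison DESeq2 called 44 higher and 58 lower genes, a pseudocount of 5 gave 2 lower, and leaving out 1 library gave 0 to 1 in each direction. The causes were not tested. Fewer than 20 reads of PDCD1 in 4 lymphomas limit the precision of its fold change.

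Same-numbered libraries correlated between -0.14 and 0.10 in their deviations from the group means. No pairing by number was seen, but with so few libraries per group a weak one could go unseen. The replicate block gave 2 higher and 4 lower of the 8 genes and 2752 higher and 2158 lower genes in lymphoma against control. VSIR and PTPN11 lost their calls under the block.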
